A study of Bos taurus with 30 samples.

Results

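Among 97173 stretches of chromatin that were open in bovine 8-cell embryos and in no earlier control stage, 6277 were also open in every library of 8-cell embryos cultured with the transcription inhibitor α-amanitin, and these are called TBE-open new regions here. Open chromatin was mapped with ATAC-seq, in which a transposase cuts DNA that is not held by nucleosomes or other proteins, and a peak is a place with more tags than the background of the same library. For each stage, control peaks of its 3 replicates were joined where they shared 1 bp, and joined stretches seen in 2 or more replicates were taken as its regions, 120364 of them at the 8-cell stage. A region was new when it overlapped no region of GV oocytes, 2-cell or 4-cell embryos, and a new region was TBE-open when peaks of all 3 α-amanitin lists overlapped it. These regions were therefore chosen by the peaks of the 8-cell lists and of the earlier control lists, and values from those lists are given as descriptions without a test.

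The series held 30 peak lists from Bos taurus, 3 for each of 10 groups. Control groups were germinal vesicle (GV) oocytes taken before maturation, embryos produced in vitro and collected at the 2-cell, 4-cell (2 days after insemination), 8-cell (3 days), and morula (5 days) stages, inner cell masses (ICM) separated by immunosurgery from blastocysts of day 7, and embryonic stem cells (ESC) derived from ICM and grown on mouse feeder cells, from which they were separated by plating. Transcription blocked embryos (TBE) of the 2-, 4- and 8-cell stages received 50 µg/ml α-amanitin in the culture medium, and control and TBE embryos of a stage were split from the same culture. All embryos were fertilized with frozen Holstein semen, each oocyte or embryo library was a pool of many cells, and oocytes and embryos came from 3 separate collections per stage. A peak in a pool cannot tell a site open in many cells from one strongly open in few.

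The first divisions of a mammalian embryo run on RNA and protein that the egg stored, and in cattle the major wave of embryonic genome activation comes at the 8-cell stage. α-Amanitin binds RNA polymerase II and stops it from moving along the gene, so that treated embryos are left with maternal products. A site that opens on schedule in such embryos is accessible without newly made messenger RNA, whereas one that stays closed is missing when transcription is. How complete the block was cannot be read from peak lists.

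Most new 8-cell regions were not open in TBE. Of the 97173 new regions, 62532 had a peak in 0 of 3 TBE lists, 19534 in 1 list, 8830 in 2 lists and 6277 in all 3, so that the TBE-open share was 6.46% (exact 95% binomial interval 6.31% to 6.62%). Among the 23191 8-cell regions that had already been open at an earlier stage, 16591 or 71.5% were covered in all 3 TBE lists. Over all 8-cell regions the share was 19.0%. The other 90896 new regions serve below as the comparison set. These intervals cover counting error only, and neighbouring regions of one genome are not independent.

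The 3 TBE lists differed in size and depth, and most regions that missed membership by 1 list lacked a peak in the shortest. They held 90890, 247513 and 50090 peaks in replicates 1, 2 and 3. The peak lists do not state the number of reads, so a background level, the tags expected at a position by chance and proportional to depth, was solved from the peak statistics. It was 1.24, 3.82 and 0.347 in the 3 TBE libraries, against 1.31, 0.806 and 0.808 in the 8-cell control libraries. Of the 8830 new regions with peaks in exactly 2 TBE lists, 6966 (78.9%) lacked one in replicate 3, 1584 in replicate 1 and 280 in replicate 2. Without TBE replicate 3 the number of members became 13243, a share of 13.6%. A region without a TBE peak is thus one in which none was detected at this depth.

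In control embryos the TBE-open regions had nearly the same fold enrichment as the other new regions but ranked somewhat higher by −log10 p. Strength is given as fold enrichment, the tags at a peak relative to the background around it in that library, as a mean along the peak. In the 3 control libraries the median fold enrichment was 3.97, 3.99 and 4.46 at TBE-open regions and 3.98, 3.98 and 4.30 at other new regions. The median percentile of −log10 p among all peaks of a control list was 57.5, 58.1 and 64.3 at TBE-open regions and 52.7, 54.9 and 57.1 at other new regions. Peaks of all 3 control libraries were present at 71.9% of TBE-open and 61.6% of other new regions. With new regions sorted by control fold enrichment into 10 bins of equal size, the TBE-open share ran from 5.50% to 7.57%, and it was 7.45% in the weakest bin and 6.68% in the strongest. Membership was thus not confined to the strongest sites of control embryos.

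In TBE libraries the TBE-open regions had median fold enrichments of 3.85, 2.95 and 4.10 in replicates 1, 2 and 3. Where other new regions had a peak in these libraries, their medians were 3.34, 2.54 and 3.52. Ranked by −log10 p within each TBE list, the median TBE-open region stood at the 73.4th, 89.0th and 62.1st percentile of all peaks, against the 45.4th, 54.4th and 36.9th for other new regions with a peak. The TBE library with the highest background level, replicate 2, had the lowest medians in each set, so values of single libraries are not on one scale. The plot of fold enrichment in the 8-cell libraries shows these spreads.

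**Figure D1:**
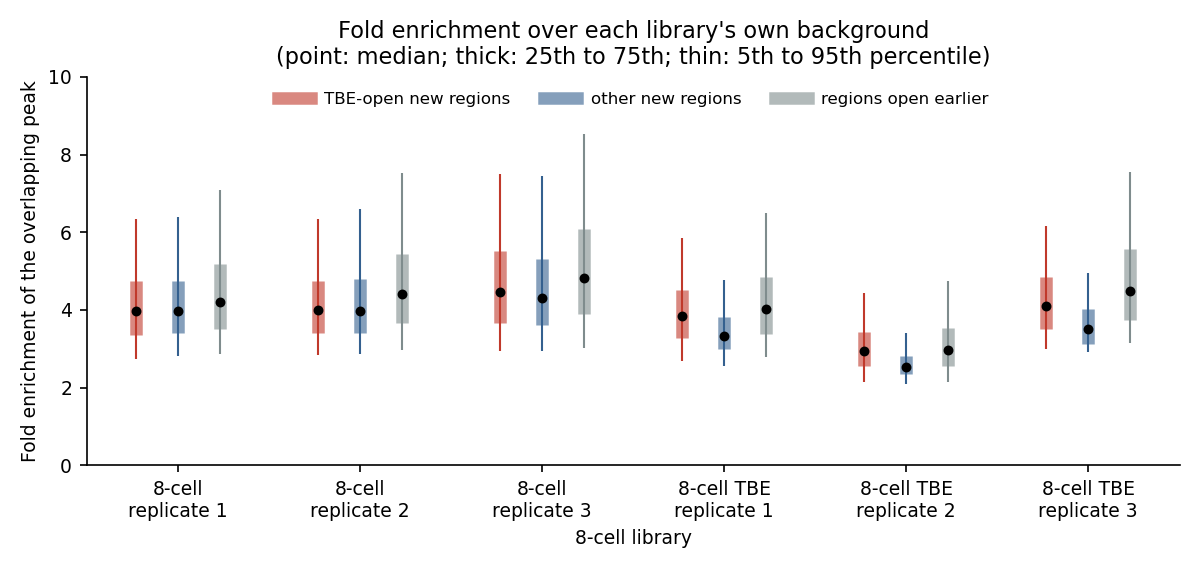
Fold enrichment (vertical axis, fold over the background of the same library) of peaks overlapping TBE-open new regions, other new regions and regions open earlier in the 6 8-cell libraries. Points are medians, thick bars run from the 25th to the 75th and thin bars from the 5th to the 95th percentile. The red and blue medians lie together in control libraries (3.97 and 3.98 in replicate 1), and the red median is higher in TBE libraries (3.85 and 3.34 in replicate 1).

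Few members met the rule by 50 bp or less, though TBE peaks often covered only part of a region. The median share of a member covered by peaks was 71.2%, 86.8% and 51.1% in TBE replicates 1, 2 and 3. The smallest overlap of a member with a TBE list was 1 bp, the median over members of that smallest overlap was 234 bp, and 85 members (1.35%) shared 50 bp or less with the list that overlapped them least. On the outer side of the rule, 44 of the 8830 regions with exactly 2 TBE lists had a peak of the missing list within 50 bp. Only 14 members had an earlier region within 50 bp, and 9 of the 16591 regions set aside as open earlier shared 50 bp or less with an earlier region.

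Later stages were not used to choose the regions, and in these the TBE-open regions carried peaks more often than other new regions. In the morula libraries, 71.1%, 87.5% and 83.9% of TBE-open regions had a peak in replicates 1, 2 and 3, against 55.2%, 63.6% and 62.0% of other new regions. In the ICM libraries the values were 54.0%, 49.1% and 64.3% against 21.0%, 21.5% and 25.1%. In the ESC libraries they were 22.5%, 57.5% and 45.8% against 5.12%, 18.0% and 12.4%. The TBE-open share was the higher of the pair in 9 of 9 libraries, and within each of these 3 groups the lowest TBE-open value exceeded the highest value of other new regions.

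The mean difference over the 9 later libraries was 28.0 percentage points ± 8.83 (SD, n = 9 libraries), with a range of 15.9 to 39.5. An exact sign-flip permutation test over libraries, two-sided, gave p = 0.00391, the smallest that 9 libraries can give, and 0.0156 after Benjamini-Hochberg adjustment over the 4 main tests. All 9 differences compare the same sets of regions, so the test speaks of a shared sign among libraries. TBE-open regions were chosen by detection in 3 further libraries, and how far that alone raises their share elsewhere was not tested. The direction was not particular to later stages: GV oocyte replicate 1, used in the choice, had 12.3% against 1.73%. With 10 further exact permutation tests of this difference between groups of libraries counted in the same family, the adjusted value was 0.0547, which does not pass 0.05. The sources used here do not say whether the 3 ESC libraries are separate lines or cultures. With their mean counted as 1 sample, the mean difference was 27.4 points, with p = 0.0156 in the same exact test, the smallest that 7 samples can give, and 0.0625 after adjustment over the 4 main tests. By stage, the difference was 20.6 points ± 4.17 (SD, n = 3) in morula, 33.2 ± 5.84 in ICM and 30.1 ± 11.4 in ESC. With 3 libraries, a stage alone cannot go below p = 0.25 in this exact test. As ratios of mean shares, TBE-open regions had a peak 1.34 times as often as other new regions in morula, 2.48 times in ICM and 3.54 times in ESC. The size of this contrast was also compared between stages. Exact permutation tests of 3 against 3, which cannot go below p = 0.1, gave p = 0.1 for morula against ICM, 0.3 for morula against ESC and 0.9 for ICM against ESC.

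**Figure D2:**
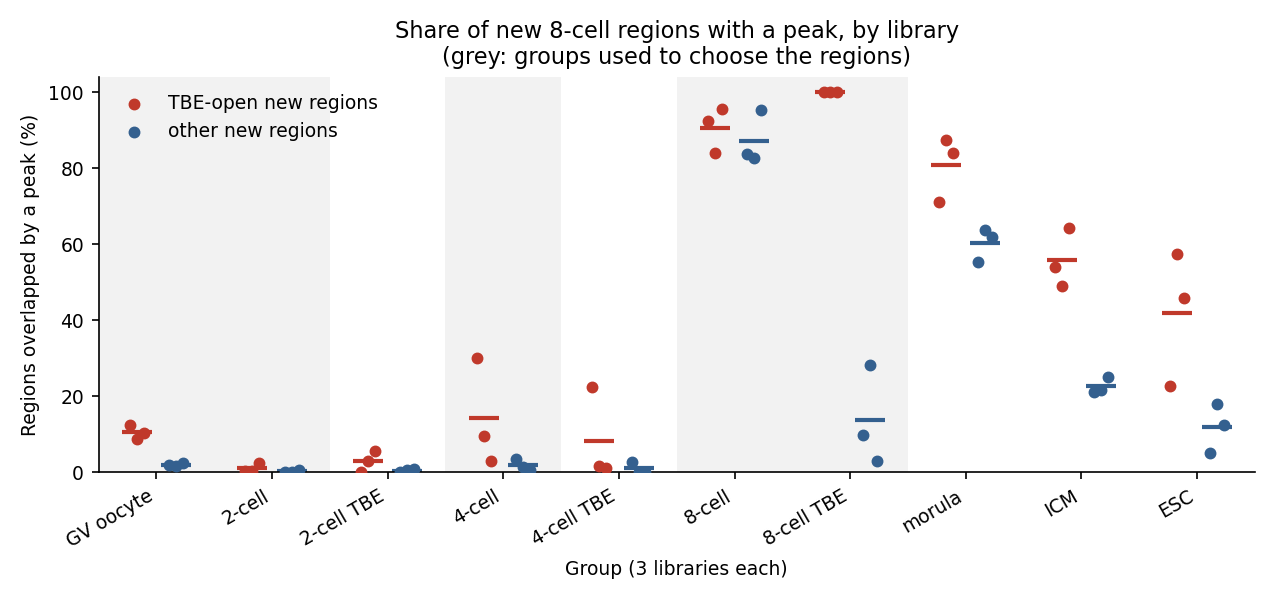
Percentage of TBE-open new regions (red) and other new regions (blue) overlapped by a peak in each of the 30 libraries. Points are libraries, horizontal lines are means of 3, and grey shading marks groups used to choose the regions. In morula, ICM and ESC every red point lies above every blue point of its group, from 22.5% against at most 18.0% in ESC to 71.1% against at most 63.6% in morula.

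The difference was nearly as large within bins of control fold enrichment, in which the sets hardly differed, and within bins of width. The sets also differed in −log10 p rank and in peaks of all 3 control libraries (71.9% against 61.6%). They were not matched on these here, nor on peaks in earlier libraries. Taken within 10 bins of control fold enrichment, the mean difference over the 9 later libraries was 27.6 points, and within 10 bins of region width it was 27.1 points (both p = 0.00391, same exact test). In the weakest bin, 69.9% of TBE-open regions overlapped a morula region, 44.1% an ICM region and 34.5% an ESC region, against 45.0%, 17.5% and 10.6% of other new regions. In the strongest bin the shares were 95.8%, 70.9% and 51.8% against 88.8%, 34.8% and 10.6%. The ESC share of other new regions thus stood at the same value in the weakest and the strongest bin, while that of TBE-open regions was higher in the strongest.

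**Figure D3:**
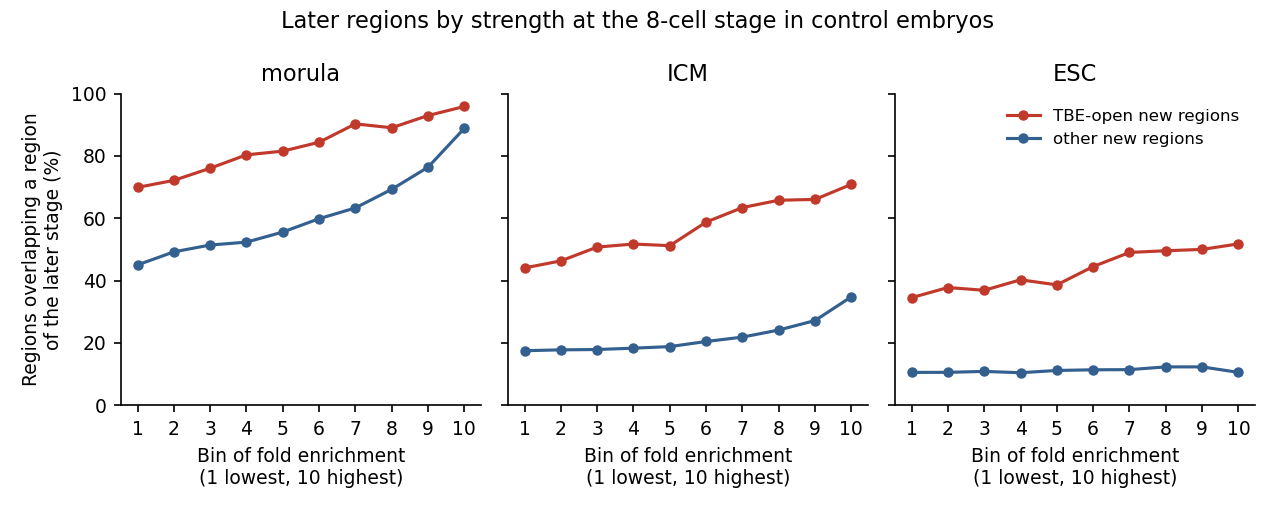
Percentage of regions overlapping a morula, ICM or ESC region (vertical axis) by bin of fold enrichment in control 8-cell embryos (horizontal axis, 10 bins of equal size, 1 weakest) for TBE-open new regions (red) and other new regions (blue). Red lies above blue in all 10 bins of each panel, and the blue ESC line stays between 10.5% and 12.3%.

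The shares were also higher with each further TBE list that covered a new region. In morula libraries the mean share with a peak was 55.7% for new regions with 0 TBE lists, 68.4% with 1, 74.4% with 2 and 80.8% ± 8.61 (SD, n = 3 libraries) with 3. In ICM libraries the means were 17.4%, 30.1%, 42.3% and 55.8% ± 7.79. In ESC libraries they were 7.44%, 17.9%, 29.8% and 41.9% ± 17.8. Regions with peaks in 2 TBE lists thus lay between the members and the rest in all 3 groups. The number of lists also followed depth. Of new regions with 1 list, 87.3% had it in replicate 2, the TBE library with the highest background level. Of those with 2 lists, 78.9% lacked replicate 3, the shortest. The part of depth in this order was not tested.

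From morula to ICM to ESC, fewer TBE-open regions were found open, though the libraries differed in depth. The mean share with a peak was 80.8% in morula and 55.8% in ICM, a difference of 25.0 points, and the lowest morula library (71.1%) was above the highest ICM library (64.3%). An exact two-sided permutation test gave p = 0.1, the smallest that 3 against 3 allows, and 0.133 after adjustment. ICM and ESC libraries overlapped, with a lowest ICM value of 49.1% and a highest ESC value of 57.5%, and their difference of 13.8 points had p = 0.4 in the same exact test. Background levels were 0.452, 0.927 and 0.716 in morula, 0.493, 0.438 and 1.06 in ICM and 0.175, 0.656 and 0.404 in ESC. In morula and in ESC the library with the lowest level had the lowest share and that with the highest level the highest share, and in ICM the same order held. The part of depth in these differences was not tested.

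Followed region by region, the largest class of TBE-open regions was found again at every later stage. Of the 6277 TBE-open regions, 2091 (33.3%) overlapped a region of morula, ICM and ESC alike, against 5.89% of other new regions and 71.6% of regions open earlier. Another 1398 (22.3%) overlapped morula and ICM regions but no ESC region, 1288 (20.5%) overlapped a morula region only, and 783 (12.5%) overlapped no later region. Among other new regions the last 2 classes were the most common, with 36.4% in morula only and 36.6% in no later region. In all, 5247 TBE-open regions (83.6%) overlapped a morula region, 3600 (57.4%) an ICM region and 2740 (43.7%) an ESC region, against 62.5%, 24.2% and 13.3% of all new 8-cell regions. A region of ICM or ESC without one of morula was overlapped by 247 TBE-open regions. By class, 0.69% overlapped ICM and ESC, 1.08% ICM only and 2.17% ESC only. The same classes held 0.17%, 0.67% and 1.48% of other new regions.

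**Figure D4:**
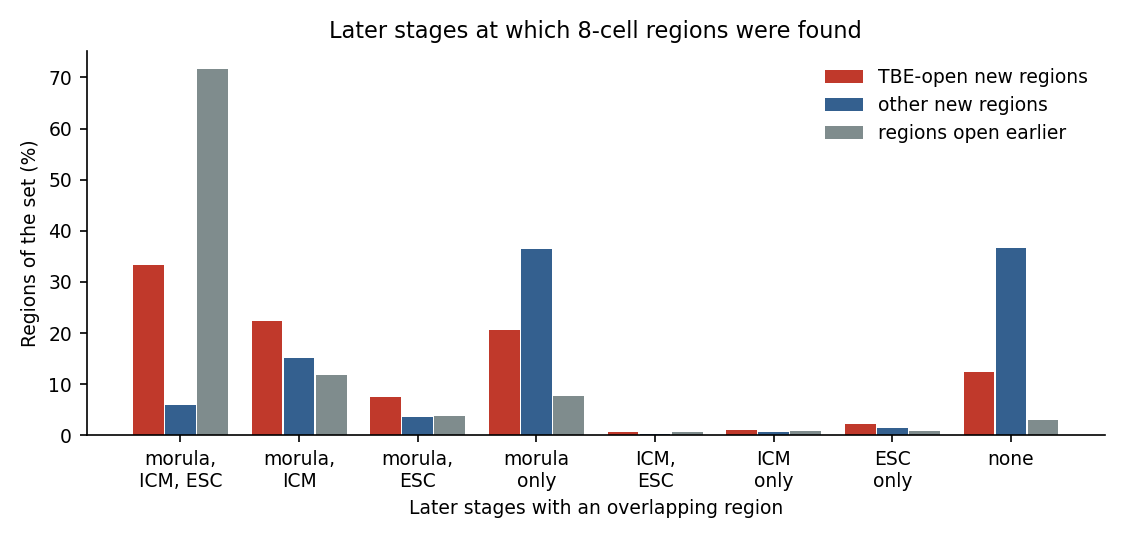
Percentage of TBE-open new regions (red), other new regions (blue) and 8-cell regions open earlier (grey) by the later stages at which an overlapping region was found. The red bar for all 3 later stages (33.3%) stands between the blue (5.89%) and the grey (71.6%), and the blue bars are tallest for morula only and for no later stage.

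The histories differed in strength and in earlier peaks. With fold enrichment averaged over the 3 libraries of a group, members found at all 3 later stages had a median of 4.41 in control and 3.85 in TBE, and 81.0% of them had peaks in all 3 control libraries. Members with no later region had medians of 3.67 in control and 3.62 in TBE, and 52.4% had peaks in all 3 control libraries. A peak in at least 1 of the 9 GV oocyte, 2-cell and 4-cell control libraries was present at 68.9% of members found at all 3 later stages and at 40.9% of those with no later region.

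New regions could still hold a peak in a single earlier library, and the TBE-open regions often did. Of the 6277, 2706 (43.1%) had no peak in any of the 9 earlier control libraries, against 89.9% of other new regions. New regions with peaks in 2 TBE lists stood between, at 62.5%. A peak in 1 earlier library was present at 2453 TBE-open regions (39.1% against 8.61% of other new regions). Peaks in 2 were present at 1008 (16.1% against 1.34%) and in 3 at 102 (1.62% against 0.09%). At least 1 peak of GV oocytes was present at 30.2% of TBE-open regions, of 2-cell embryos at 2.90% and of 4-cell embryos at 41.6%. For other new regions these shares were 5.70%, 0.50% and 5.25%. By library, the 4-cell shares were 30.0%, 9.40% and 3.01% in replicates 1, 2 and 3, and the GV oocyte shares 12.3%, 8.75% and 10.3%. Among other new regions the same libraries gave 3.33%, 1.30% and 0.67% and then 1.73%, 1.69% and 2.40%. The background levels were 0.494, 0.453 and 0.223 in the 4-cell libraries, at most 0.507 in GV oocytes, and below those of the 8-cell controls in each. Some sites counted as new were therefore already detectable before the 8-cell stage in part of the collections.

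The 2- and 4-cell TBE libraries were not used to choose the regions. The TBE-open regions had a peak in 0.14%, 2.98% and 5.48% of cases in the 2-cell TBE libraries and in 22.3%, 1.50% and 0.94% in the 4-cell TBE libraries. Other new regions had one in 0.02%, 0.41% and 0.74% and in 2.67%, 0.12% and 0.10%. The TBE-open share was higher in 6 of 6 libraries, by 4.88 points on average ± 7.41 (SD, n = 6), with a range of 0.124 to 19.6. The exact two-sided sign-flip permutation test gave p = 0.0312, the smallest that 6 libraries can give, and 0.0625 after adjustment over the 4 main tests, which does not pass 0.05. 4-cell TBE replicate 1 alone gave the 19.6 points, and without it the mean difference was 1.93 points. The TBE-open regions were chosen by detection in all 3 8-cell TBE lists. How far that alone raises their share in these libraries was not tested. The direction was not particular to TBE: the 4-cell control libraries, used in the choice, had mean shares of 14.1% against 1.77%. In the 4-cell TBE libraries the means were 8.25% against 0.97%.

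Where a TBE-open region had a peak in 4-cell control replicate 1, 591 or 31.4% also had one in 4-cell TBE replicate 1 (exact interval 29.3% to 33.5%), against 13.1% of other new regions (12.0% to 14.4%). These intervals cover counting error only. In that control library the sets differed in strength, with median fold enrichments of 3.93 and 3.67. Their median percentiles of −log10 p were 49.6 and 36.4. The sets were not matched on strength, and other pairs of libraries were not compared in this way. The sources used here do not state that same-numbered libraries shared a collection. Of all members, 4486 (71.5%) had a peak in none of the 6 earlier TBE libraries, against 96.2% of other new regions. A peak in 1 library was present at 1513 members (24.1% against 3.56%) and in 2 at 256 (4.08% against 0.23%). Peaks in 3 were present at 20 members and in 4 at 2.

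A stricter set of 2229 members (35.5%, exact interval 34.3% to 36.7%) had no peak in any of the 15 earlier libraries, control or TBE. The corresponding share of other new regions was 87.6%. In these 2229 members, the share with a peak was 74.4% ± 10.2 (SD, n = 3) in morula, 46.0% ± 7.21 in ICM and 32.3% ± 15.7 in ESC. In the 79617 other new regions without an earlier peak the shares were 58.0% ± 4.05, 19.6% ± 1.92 and 9.30% ± 5.45. In each of the 9 later libraries the members without any earlier peak thus kept the higher value, for example 15.4% against 3.71% in ESC replicate 1 and 62.8% against 53.4% in morula replicate 1.

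The TBE-open regions were wider than other new regions. Their median width was 713 bp (25th to 75th percentile 337 to 1142 bp), that of other new regions 561 bp and that of regions open earlier 1039 bp. A width of 1000 bp or more was found for 32.8% of TBE-open regions and 24.8% of other new regions. New regions with peaks in 0, 1 and 2 TBE lists had median widths of 497, 709 and 754 bp. Of these, 21.2%, 31.9% and 34.2% measured 1000 bp or more. The rule asked for 1 bp of overlap, and the part of width in membership was not tested. When 50% of a region had to be covered to count as shared, 3334 regions met the rule, a share of 3.20%.

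The TBE-open share did not rise evenly with width. It was 4.53% in the narrowest of 10 equal bins of new regions (200 to 274 bp), 8.48% in the next (274 to 308 bp), 5.08% at 308 to 357 bp, 4.23% at 357 to 438 bp and 10.3% in the widest. The bin of 274 to 308 bp held 824 TBE-open regions, of which 88.6% overlapped a morula region, 65.9% an ICM region and 54.2% an ESC region. The 8893 other new regions of the same widths overlapped them in 52.7%, 19.0% and 12.6% of cases. The ESC share of 54.2% was the largest of the 10 width bins for TBE-open regions. Members of 274 to 308 bp, both ends included, had a median control fold enrichment of 4.69 against 4.15 over all members. Their median TBE value was 4.04 against 3.68. Members of 1000 bp or more had medians of 3.86 in control and 3.48 in TBE. The same medians were not taken for other new regions of these widths.

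Along the genome, the TBE-open regions lay nearer to chromatin that had been open earlier. The median distance to the nearest GV oocyte, 2-cell or 4-cell region was 15.1 kb for TBE-open regions and 28.7 kb for other new regions. Within 10 kb of such a region lay 36.9% of TBE-open and 23.9% of other new regions. New regions with peaks in 0, 1 and 2 TBE lists had median distances of 32.9, 24.3 and 17.7 kb. Members with no peak in any earlier library had a median distance of 14.8 kb.

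The TBE-open share differed among chromosomes. It was highest on chromosomes 18 (262 of 2429 new regions, 10.8%), 19 (9.85%) and 24 (9.50%) and lowest on chromosomes X (107 of 2876, 3.72%), 28 (4.02%) and 3 (4.85%). The exact intervals were 9.58% to 12.1% for chromosome 18 and 3.06% to 4.48% for X, beside 6.46% over all new regions. They cover counting error only, for the highest and the lowest of 30 chromosomes, and no test was made. Chromosomes 18 and 19 also had the largest shares of 8-cell regions open earlier, 33.3% and 30.4%. On the X chromosome, new regions had a peak in 10.0%, 24.9% and 5.42% of cases in TBE replicates 1, 2 and 3, compared with 15.8%, 33.0% and 9.23% on the autosomes. Regions of X open earlier had peaks in all 3 TBE lists in 57.4% of cases, the lowest of the 30 chromosomes. The 107 TBE-open regions of X overlapped a morula region in 86.0%, an ICM region in 50.5% and an ESC region in 41.1% of cases, beside 83.6%, 57.4% and 43.7% over all members. The higher later share of TBE-open over other new regions was present on 30 of 30 chromosomes in each of morula, ICM and ESC.

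**Figure D5:**
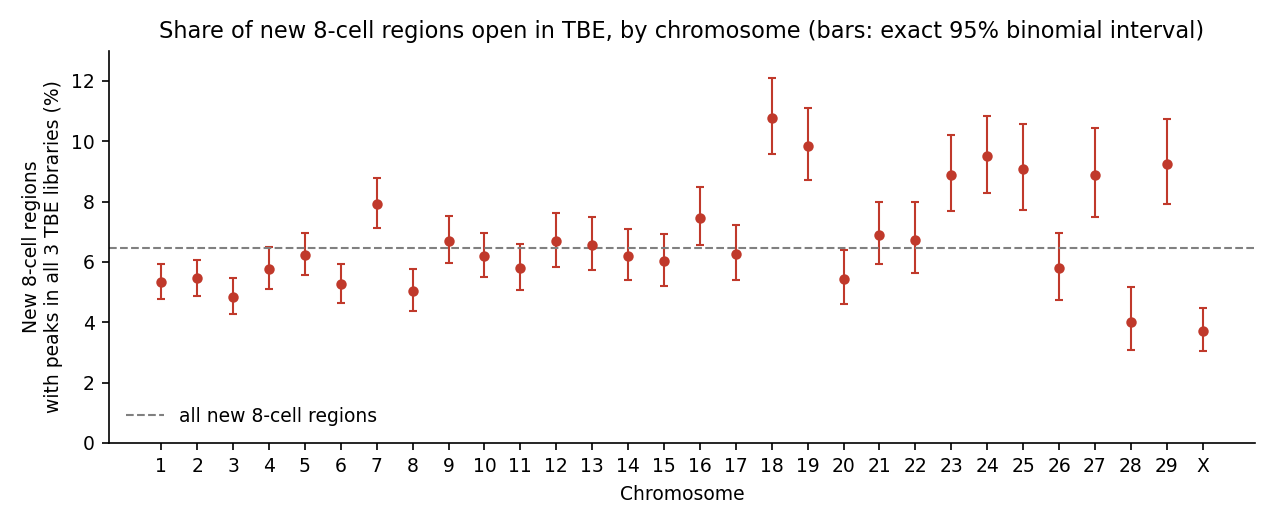
Percentage of new 8-cell regions that were TBE-open (vertical axis) on each chromosome, with exact 95% binomial intervals that cover counting error only. The dashed line marks the 6.46% of all new regions, with chromosome 18 (10.8%) farthest above it and chromosome X (3.72%) farthest below.

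Most TBE-open regions on chromosomes had no other TBE-open region within 10 kb. Their spacing was not compared with that of other new regions. Of the 6277 TBE-open regions, 6229 were placed on chromosomes. The median distance from one of these to the nearest other was 81.0 kb, and 762 of the 6229 (12.2%) had another within 10 kb. Joined at gaps of up to 10 kb, 5467 stood alone, 332 runs held 2, 25 held 3, 3 held 4, and single runs held 5 and 6. The run of 6 spanned 39.9 kb at chr7:52224838-52264774 (ARS-UCD1.2, the build of the peak lists), where 6 of the 7 8-cell regions were TBE-open, and 4 of the 6 overlapped a morula region, 3 an ICM region and 3 an ESC region. The run of 5 spanned 26.2 kb at chr4:68843084-68869305, where 5 of 6 8-cell regions were TBE-open. All 5 overlapped a morula region, 3 an ICM region and 0 an ESC region. Over all members, the shares overlapping a morula, ICM and ESC region were 83.6%, 57.4% and 43.7%.

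Single regions show these histories by library. From among the members, 10 were taken by rank of their lowest fold enrichment over the 6 8-cell libraries, from the 1885 members on chromosomes that had peaks in all 3 control libraries and in none of the 9 earlier control libraries. The values that ranked them are descriptions.

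The first, at chr26:17387985-17388367 (383 bp), had fold enrichments of 8.32, 6.41 and 8.45 in the 8-cell control libraries and of 6.83, 5.96 and 6.98 in TBE. It was open in all 9 later libraries, at 7.65, 8.20 and 11.0 in morula, 5.58, 7.58 and 8.88 in ICM and 3.94, 6.28 and 4.87 in ESC. Its only earlier peak was in 4-cell TBE replicate 1, with a fold enrichment of 3.98. Control and TBE values overlapped at the 8-cell stage.

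The second, at chr4:22186422-22186821 (400 bp), had 7.40, 7.32 and 7.29 in control and 8.36, 5.61 and 5.59 in TBE libraries. It had no peak in any of the 15 earlier libraries and lay 8.19 kb from the nearest earlier region. It was open in all 9 later libraries, with 9.47, 12.2 and 10.2 in morula and 6.77, 8.85 and 11.5 in ICM.

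The third, at chr12:28795793-28796206 (414 bp), had 5.62, 7.45 and 6.81 in control and 5.86, 5.12 and 6.80 in TBE libraries, and a peak in 2-cell TBE replicate 2 at 4.62. It was open in all morula and ICM libraries and in ESC replicates 2 and 3.

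The region chr14:53089595-53090008 (414 bp) had the widest gap between control and TBE among the 10. Its fold enrichment was 10.1, 10.1 and 12.0 in control and 6.48, 5.37 and 4.98 in TBE libraries, so that the groups did not overlap. Over all peaks, the median was 3.84, 3.81 and 4.05 in the control and 3.37, 2.49 and 3.79 in the TBE libraries. Fold values of these libraries are thus not on one scale. The region stood at 11.1, 12.1 and 12.3 in morula and at 5.45, 6.68 and 4.96 in ICM, and of the ESC libraries it had a peak in replicate 2 alone.

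At chr10:36124207-36125115 (909 bp) the order was the other way. Control libraries had 4.79, 4.70 and 4.98 and TBE libraries 6.08, 5.32 and 6.51. It had an earlier peak in 4-cell TBE replicate 1 at 4.76, none in the earlier controls, and peaks in all 9 later libraries, with 5.25, 10.5 and 7.54 in morula.

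Other named regions had no peak in ESC or in both ICM and ESC. At chr1:100411170-100411804 (635 bp), the values were 6.69, 5.83 and 8.62 in control, 6.06, 4.87 and 5.54 in TBE and 5.74, 6.65 and 4.46 in morula, with no peak in ICM or ESC. The regions chr20:8757363-8758498 and chr9:73063569-73064099 were likewise open in 3 of 3 morula libraries and in none of ICM or ESC. The region chr14:79460801-79462521 was open in all morula and ICM libraries and in no ESC library.

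The region chr12:20302980-20303257 (278 bp) had a peak in the 8-cell libraries and in no others. Its fold enrichment was 6.44, 4.95 and 5.89 in control and 8.28, 4.87 and 7.20 in TBE libraries. Of the 10 named regions, 9 had peaks in all 3 morula libraries, 6 in all 3 ICM libraries and 3 in all 3 ESC libraries. Over the 1885 eligible members, the share with a peak in a single library was 72.1% to 86.8% in morula. It was 46.8% to 59.4% in ICM and 17.6% to 49.2% in ESC. The 10 were the highest in rank and not a random draw.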

How the data were processed

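Peak lists of 30 ATAC-seq libraries of Bos taurus were used, 3 for each of 10 groups. Reads were trimmed with Cutadapt, aligned by the authors to ARS-UCD1.2 with BWA 0.7.17, cleared of PCR duplicates (PicardTools) and then of low-quality and mitochondrial alignments (SAMtools 1.7), and broad peaks were called with MACS2 2.1.1 at a q value of 0.05. Versions are those of the submitters' processing notes. The methods describe merged and subsampled alignments, whereas each deposited list belongs to 1 library, and lists differ in depth. The fold enrichment in the deposited lists was made by the authors in MACS2 from tags over local background, averaged along a peak, and so were the −log10 p and −log10 q values. The deposited score, MACS2's integer form of −log10 q, was not used.

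Peaks were intersected with Python 3.11.15, numpy 2.4.6, pandas 2.3.3 and scipy 1.17.1, and drawn with matplotlib 3.10.9. Interval operations were checked on simulated peaks (0 mismatches in 200 trials), and the solver of the background level recovered 4 of 4 simulated levels. Shares per library entered exact permutation tests, two-sided, at 0.05, with Benjamini-Hochberg adjustment over the 4 main tests, and intervals are Clopper-Pearson at 95%. Replicates of embryos are separate collections, and 0 pairs of lists were identical. For ESC the sources used here give no separate lines per library, so the spread there may be technical. The members and the lists of alternatives were chosen with earlier results of these data known. Named regions were on chromosomes, had peaks in all 3 8-cell control and none of 9 earlier control libraries, and were the first 10 by their lowest fold enrichment over 6 8-cell libraries. Alternatives were stricter peaks, other overlaps and replicate rules, autosomes, equal list lengths, bins and libraries left out. Genic position, gene lists, base composition, repeats, motifs and sequences call for a genome and annotation of ARS-UCD1.2 and were not analysed here.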

Additional observations from a re-analysis of the deposited data

How the results depend on the processing

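The number of TBE-open regions depended on the settings far more than their later history did. It was 3770 (6.09% of new regions) with peaks of −log10 q of at least 3, 2715 (3.15%) with a fold enrichment of at least 3, 3715 (2.35%) with regions from any replicate, 3334 (3.20%) with 50% of the region covered, 1856 (5.77%) with the 8-cell lists cut to the 50090 peaks of the shortest, and 2706 (3.20%) with no peak allowed in any single earlier control library. The share was 11.4% with regions from all 3 replicates. Leaving out one 8-cell library gave 4724 to 13243 members and shares of 6.39% to 13.6%, the highest of both without 8-cell TBE replicate 3.

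The difference between TBE-open and other new regions in later libraries stayed positive under all 30 alternatives, at 20.6 to 33.2 points. With morula, ICM or ESC alone it was 20.6, 33.2 and 30.1 points, where 3 libraries cannot go below p = 0.25 in the exact test. Leaving out one library gave 23.5 to 29.5 points. The difference in 2- and 4-cell TBE libraries stayed positive under all 23 alternatives. Leaving out one library gave 1.93 (without 4-cell TBE replicate 1) to 5.83 points, with p = 0.0625 in the exact test whenever 5 libraries were left, the smallest they allow. The differences between morula and ICM (18.4 to 29.01 points) and between ICM and ESC (5.03 to 25.0 points) kept their sign under all 18 alternatives each.

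Groups share replicate numbers. Over regions, deviations of same-numbered libraries from their group means correlated at −0.0329 to 0.0455 between morula and ICM, ICM and ESC, and 8-cell and 8-cell TBE. Such values cannot show whether same-numbered libraries shared a collection, and control and TBE embryos of a stage were split from the same culture. The main tests between stages did not pair libraries by number. Other groups were not compared in this way. With the replicate block, the exact test over 3 pairs gave p = 0.25 for the 25.0 points between morula and ICM, the smallest possible, and p = 0.5 for the 13.8 points between ICM and ESC. Bins of region width and the ESC mean as 1 sample were added after seeing the data. A region without a TBE peak may lie below detection, and no list states its reads.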
